A study of Mus musculus with 6 samples.

Results

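The 10 genes Cd5l, Vsig4, Timd4, Folr2, Cd163, Mrc1, Lyve1, Gas6, Axl and Mertk are genes of tissue-resident macrophages and of dead-cell clearance. They were chosen on the genotype comparison of these same 6 libraries, because Cd5l, Vsig4, Timd4 and Folr2 were higher together in Scd2-m/-m macrophages. They are 10 of the 40481 genes in the count table, and 9 of them were among the 14778 genes with enough counts to test. Their genotype differences are therefore given as a description, with a standard error (SE) and no p-value. How many of them passed the threshold used for all genes is counted only for reference, and supports nothing.

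Poly(A)-selected RNA of bone marrow-derived macrophages (BMDMs) was sequenced in 6 samples, 3 of wild type and 3 of Scd2-m/-m genotype. Scd2 encodes a stearoyl-CoA desaturase, an enzyme that places a double bond in saturated fatty acids. In Scd2-m/-m mice, floxed Scd2 alleles were recombined by lysozyme M-Cre, a Cre recombinase expressed with the myeloid lysozyme gene Lyz2, so the deletion arises as myeloid cells mature and need not reach every cell. The authors used male and female young adult mice for their experiments in general. The labels give no sex, so how the sexes were divided between the genotypes in these samples is not known. The sources used here do not say whether the wild-type mice carried Cre or a floxed allele. Cells of both genotypes were differentiated in medium conditioned by CMG cells, a source of M-CSF, and no stimulus is named in the labels. Samples are numbered 1 to 3 within each genotype, and nothing in the labels ties a number to a mouse, a culture or a day.

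The libraries held 46285176 to 57629638 counts on genes. The targeted gene Scd2 had 62.7 to 77.8 CPM (counts scaled to the TMM-adjusted library size) in wild-type libraries and 38.0 to 59.5 in Scd2-m/-m libraries. Its log2 difference was −0.59 (SE 0.19) with a false discovery rate (FDR, the Benjamini-Hochberg adjusted p of edgeR's quasi-likelihood test) of 0.100, above the 0.05 used for calls. Without Scd2-m/-m replicate 1 the difference was −0.83 (FDR 8.9e-05). By quantitative PCR, the authors reported a larger reduction of Scd2 transcript in Scd2-m/-m macrophages than the counts give here. These are unlike measures, since the PCR covered wells of several experiments scaled to housekeeping genes. The counts are reads per gene in these samples, and the reason for the gap was not tested. Macrophage markers were present in every library, and their summed level was 38443 to 39240 CPM in wild-type and 22281 to 22758 CPM in Scd2-m/-m libraries. Most of that gap was Lyz2, the gene that carries the Cre, at 22751 ± 584 CPM in wild type against 9029 ± 357 CPM with the deletion (SD, n = 3 each). All 10 markers were tested, and 5 were called lower, among them Lyz2, Csf1r (7031 ± 285 to 5414 ± 68.7 CPM) and Spi1 (758 to 648 CPM). Called higher were 2 of them, Cd68 (2158 to 2519 CPM) and Cd33 (32.9 to 62.0 CPM). Over all genes tested, 7.84% were called lower and 9.65% higher.

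Macrophages that settle in liver, spleen, body cavities and vessel walls carry receptors that circulating monocytes lack, and cultured BMDMs carry some of them at low levels. CD5L is a secreted scavenger protein made by such cells, VSIG4 binds complement C3 fragments, TIM-4 (from Timd4) binds phosphatidylserine exposed on dying cells, and FOLR2 is the folate receptor beta. GAS6 bridges phosphatidylserine to the TAM receptor tyrosine kinases TYRO3, AXL and MERTK, through which macrophages take up apoptotic cells and damp inflammatory signalling.

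Of the 9 tested genes, 5 were above the calling threshold with a higher level in Scd2-m/-m libraries (Cd5l, Vsig4, Timd4, Folr2 and Axl), 1 with a lower level (Mertk), and Cd163, Mrc1 and Gas6 did not pass it. The same 6 genes were those whose wild-type and Scd2-m/-m libraries did not overlap. Over all genes tested, 17.5% were called, 9.65% as higher and 7.84% as lower, and the libraries did not overlap in 17.9% with Scd2-m/-m higher and in 17.0% with it lower. Because the genes were chosen on this comparison, nothing is read from those shares. In bulk RNA, more cells of one kind and more RNA per cell cannot be told apart.

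**Figure D1:**
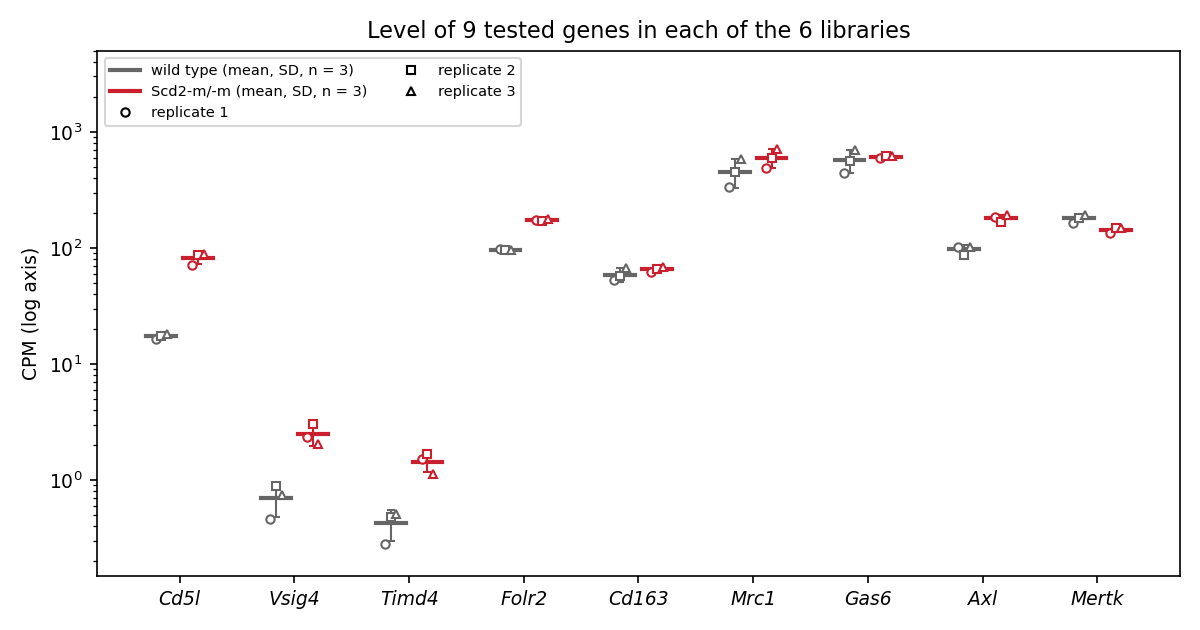
CPM (log axis) of the 9 tested genes in each library. Open symbols are libraries by replicate number, thick bars genotype means and thin bars the SD (n = 3 each), in grey for wild type and red for Scd2-m/-m; the groups are apart for Cd5l, Vsig4, Timd4, Folr2, Axl and Mertk and overlap for Cd163, Mrc1 and Gas6.

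Cd5l (ENSMUSG00000015854, chr3:87357881-87371073 of GRCm38, plus strand) was the gene of the set with the widest separation. Wild-type replicates 1, 2 and 3 had 16.4, 17.6 and 18.2 CPM, and Scd2-m/-m replicates 1, 2 and 3 had 71.4, 86.9 and 88.1 CPM. The lowest Scd2-m/-m library was 3.92 times the highest wild-type library, whereas the highest library was 1.11 times the lowest within wild type and 1.23 times within Scd2-m/-m. The means were 17.4 ± 0.913 and 82.1 ± 9.29 CPM (SD, n = 3 each), a ratio of 4.72 and a log2 difference of 2.24 (SE 0.09). Ranked from the most raised, this was place 69 of the 14778 genes tested. Scaled by exonic length, the level of Cd5l was 8.55 CPM per kilobase in wild type against 40.3 in Scd2-m/-m, the 68.5th and the 92.3rd percentile of the genes tested.

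Vsig4 (ENSMUSG00000044206, chrX:96247203-96293438, minus strand) and Timd4 (ENSMUSG00000055546, chr11:46810800-46844332, plus strand) were separated as well, at much lower levels. Vsig4 had 23, 41 and 38 counts in wild-type replicates 1 to 3 and 130, 153 and 119 in Scd2-m/-m replicates 1 to 3, which is 0.463, 0.889 and 0.748 CPM against 2.33, 3.04 and 2.05 CPM. Timd4 had 14, 22 and 26 counts against 84, 84 and 66, or 0.282, 0.477 and 0.512 CPM against 1.51, 1.67 and 1.14 CPM. In each gene the lowest Scd2-m/-m library stood above the highest wild-type library, by 2.30 times for Vsig4 and 2.22 times for Timd4, and wild-type replicate 1 was the lowest of all. The log2 differences were 1.82 (SE 0.26) for Vsig4 and 1.76 (SE 0.30) for Timd4, and both SEs were wider than that of Cd5l. Their level per kilobase in Scd2-m/-m BMDMs, 1.67 for Vsig4 and 0.661 for Timd4, lay at the 35.4th and 22.3rd percentile, so both remained low transcripts in either genotype.

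Folr2 (ENSMUSG00000032725, chr7:101839988-101857194, minus strand) was an abundant transcript in both genotypes and had the tightest replicates. Wild-type replicates 1, 2 and 3 had 98.1, 95.8 and 96.8 CPM, and Scd2-m/-m replicates had 173.8, 170.0 and 178.1 CPM. Within a genotype its coefficient of variation was 1.15% and 2.32%, and the lowest Scd2-m/-m library was 1.73 times the highest wild-type library. The log2 difference was 0.84 (SE 0.05), which is a ratio of 1.80, and the levels were 62.7 and 113 CPM per kilobase. An antisense gene, Gm10602, overlaps the end of Folr2 and had 1568 counts over the 6 libraries against 42801 for Folr2. The sources used here do not give whether reads were counted by strand, so reads of that overlap cannot be told apart.

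The 4 genes thus differed in size as well as in level. Folr2 over Cd5l per kilobase was 6.99 to 7.86 in wild-type libraries and 2.58 to 3.20 in Scd2-m/-m libraries, so the distance between them was smaller in every Scd2-m/-m library. Timd4 and Vsig4 were both lowest in Scd2-m/-m replicate 3 and in wild-type replicate 1, but ranked wild-type replicates 2 and 3 in opposite order. These ranks rest on 14 to 153 counts, so counting error may set them. Cd5l and Folr2 were highest in Scd2-m/-m replicate 3, Cd5l only by 88.1 against 86.9 CPM in replicate 2.

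The promoters of these 4 genes are shown because these genes were higher together and the search window of each holds a MAF core site. That core is part of the element bound by the macrophage factor MAF. For Vsig4 the match lies after the start, so its line below has no capitals. Because the 4 genes were chosen on these data, the shared match supports nothing. Each line gives the 250 bases before an annotated start, 5′ to 3′ on the gene's strand (RefSeq, GRCm38.p6), and capitals mark the core TGCTGA or its reverse complement TCAGCA. The windows are chr3:87357631-87357880 (plus strand) for Cd5l, chr11:46810549-46810798 (plus) for Timd4, chr7:101845332-101845581 (minus) for the start of Folr2 nearer its 3′ end and chrX:96293439-96293688 (minus) for Vsig4.
Cd5l: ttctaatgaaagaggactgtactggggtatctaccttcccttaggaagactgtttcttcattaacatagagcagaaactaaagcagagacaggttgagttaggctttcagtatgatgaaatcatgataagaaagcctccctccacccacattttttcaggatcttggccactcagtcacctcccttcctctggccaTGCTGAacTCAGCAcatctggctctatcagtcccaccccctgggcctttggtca
Timd4: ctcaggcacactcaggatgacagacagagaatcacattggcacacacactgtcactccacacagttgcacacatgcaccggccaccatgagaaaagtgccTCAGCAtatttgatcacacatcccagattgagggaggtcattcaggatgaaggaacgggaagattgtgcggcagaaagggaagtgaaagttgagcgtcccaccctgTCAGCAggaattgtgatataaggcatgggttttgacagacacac
Folr2: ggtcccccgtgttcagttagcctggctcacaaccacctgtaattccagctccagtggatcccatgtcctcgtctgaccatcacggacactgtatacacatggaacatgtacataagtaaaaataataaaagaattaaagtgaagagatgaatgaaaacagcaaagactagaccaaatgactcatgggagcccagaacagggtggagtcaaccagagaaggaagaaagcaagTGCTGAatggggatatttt
Vsig4: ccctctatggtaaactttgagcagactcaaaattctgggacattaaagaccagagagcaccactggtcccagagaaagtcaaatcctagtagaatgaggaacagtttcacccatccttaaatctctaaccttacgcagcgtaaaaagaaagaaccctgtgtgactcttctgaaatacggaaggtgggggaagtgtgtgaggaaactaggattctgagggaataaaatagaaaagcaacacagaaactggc

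The motif search covered windows of 300 bases (250 before and 50 after each start), on both strands, for 9 of the 10 genes. RefSeq gave 2 windows for Folr2 and none for Lyve1, so there were 10 windows. TGCTGA was found in 5 of the 10, which were both windows of Folr2 and those of Cd5l, Timd4 and Vsig4, and in none of the windows of Cd163, Mrc1, Gas6, Axl and Mertk. Among all 32851 windows of the annotation, 19.5% held it. In Cd5l it lay 54 to 49 and 46 to 41 bases before the start, in Timd4 150 to 145 and 44 to 39 bases before, in the Folr2 window shown 19 to 14 bases before, and in its other window 220 to 215 bases before. The Vsig4 match lies 23 to 28 bases after the start, outside the bases shown.

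The Cd5l matches face each other with 2 bases between them, at chr3:87357827-87357840. A search for such facing pairs with 0 to 3 bases between, added after the Cd5l sequence had been read, found 5 of 32851 windows (0.0152%), of which Cd5l was 1. GAGGAA, a PU.1 core, was in the windows of Axl, Cd5l, Mrc1 and Vsig4 (28.3% of all windows), AGGTCA, a nuclear receptor core site, in that of Timd4 (16.3%) and TGANTCA, an AP-1 site, in 1 window of Folr2 (7.81%). TTGCNNAA (C/EBP, 10.8%), CACGTG (E-box, 7.15%), an interferon response element (3.44%) and TATAAA, a core promoter box (13.6%), were in none of them. No match overlapped that of another motif. A match is a description of letters, and does not show a site or a cause.

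Cd163 and Mrc1, scavenger and mannose receptors of resident and alternatively activated macrophages, did not separate by genotype. Cd163, the haemoglobin-haptoglobin receptor (ENSMUSG00000008845, chr6:124304656-124330527, plus strand), had 52.4, 56.9 and 67.4 CPM in wild-type replicates 1 to 3 and 62.5, 66.2 and 68.5 in the Scd2-m/-m ones. Its log2 difference was 0.16 (SE 0.08), and ranged from 0.08 to 0.27 when 1 library was left out. The value of 0.27 was without wild-type replicate 3, the one wild-type library that lay above the lowest Scd2-m/-m library.

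Mrc1, which encodes CD206 (ENSMUSG00000026712, chr2:14229392-14332057, plus strand), was more abundant and varied more between replicates, with coefficients of variation of 27.2% (wild type) and 18.3% (Scd2-m/-m). Its levels were 335, 448 and 582 CPM in wild-type replicates 1 to 3 and 489, 592 and 707 in the Scd2-m/-m ones, so both genotypes spanned a wide range and overlapped. The log2 difference was 0.39 (SE 0.25), with values of 0.21 to 0.61 when single libraries were left out. Lyve1, a hyaluronan receptor of perivascular macrophages (ENSMUSG00000030787, chr7:110850607-110863239, minus strand), had 0, 0 and 3 counts in wild-type and 2, 0 and 2 counts in Scd2-m/-m libraries. With 3 counts at most in any library, no fold is given.

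**Figure D2:**
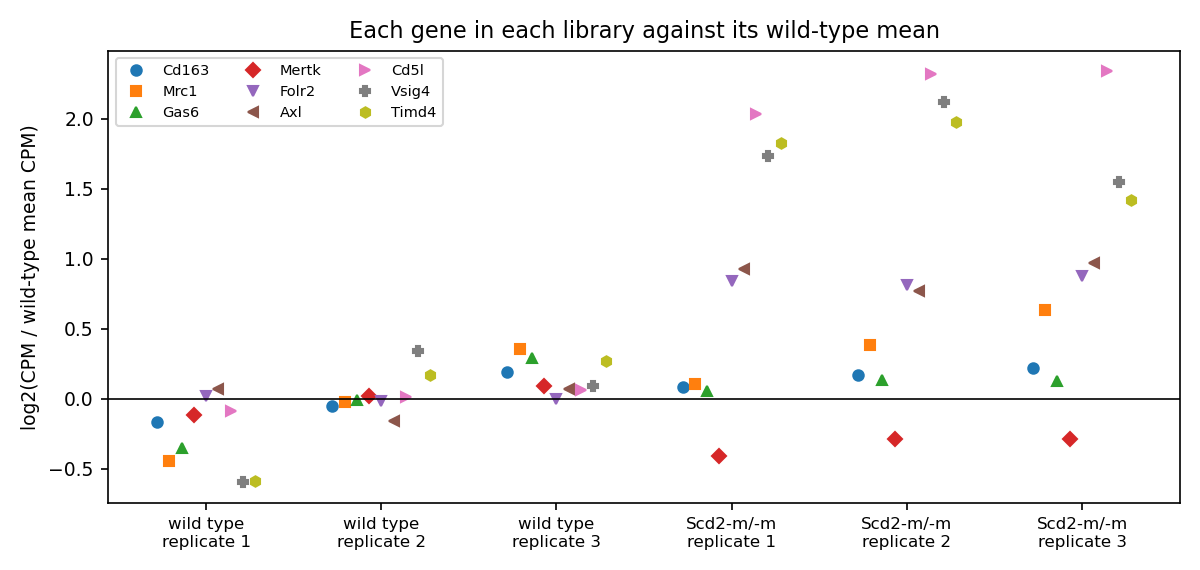
The log2 ratio of each tested gene's CPM in a library to its wild-type mean, with 1 symbol per gene and the 6 libraries along the horizontal axis. Cd163, Mrc1, Gas6 and Mertk lie lowest in replicate 1 within each genotype, while Cd5l, Vsig4 and Timd4 lie more than 1 log2 unit above the wild-type mean in all 3 Scd2-m/-m libraries.

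Gas6, the ligand (ENSMUSG00000031451, chr8:13465374-13494490, minus strand), was the most abundant of the 10 genes per kilobase, at 223 ± 49.1 CPM in wild type against 240.1 ± 6.87 CPM in Scd2-m/-m. Its levels were 445, 565 and 695 CPM in wild-type replicates 1 to 3 and 591, 623 and 620.4 in the Scd2-m/-m ones. The 3 Scd2-m/-m libraries fell inside the range of the wild-type libraries, which was 1.56 times from lowest to highest. The log2 difference of 0.11 (SE 0.14) took either sign when 1 library was left out, from −0.04 (without wild-type replicate 1) to 0.28.

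The receptors Axl (ENSMUSG00000002602, chr7:25757273-25788705, minus strand) and Mertk (ENSMUSG00000014361, chr2:128698956-128802894, plus strand) differed in opposite directions. Axl had 102, 87.3 and 102 CPM in wild-type replicates 1 to 3 and 185, 166 and 190.4 in the Scd2-m/-m ones, and the lowest Scd2-m/-m library was 1.62 times the highest wild-type library. Its log2 difference was 0.89 (SE 0.07), a ratio of 1.86. Mertk had 165, 182 and 191 CPM in wild-type replicates 1 to 3 and 135, 147 and 147 in the Scd2-m/-m ones, where every Scd2-m/-m library lay below every wild-type library. The log2 difference was −0.33 (SE 0.07), and the Scd2-m/-m mean was 79.8% of the wild-type mean.

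Per kilobase of exon, Axl lay below Mertk in every wild-type library and above it in replicates 1 and 3 of Scd2-m/-m. In wild-type libraries Axl was 0.534, 0.413 and 0.462 times Mertk, and in Scd2-m/-m libraries it was 1.18, 0.972 and 1.12 times Mertk (means 0.470 ± 0.0607 and 1.09 ± 0.107, SD, n = 3 each). The summed level of both receptors was 60.7 ± 3.18 and 68.9 ± 2.52 CPM per kilobase, so their balance differed more than their total. Gas6 stood 11.6 ± 2.63 times above Axl in wild-type and 6.71 ± 0.600 times above it in Scd2-m/-m libraries, while Gas6 over Mertk was 5.35 ± 0.811 and 7.28 ± 0.157. Tyro3, the remaining TAM receptor, had 0 to 3 counts in wild-type and 2 to 6 counts in Scd2-m/-m libraries and was not tested. With the longest transcript as length, Axl was above Mertk in every Scd2-m/-m library and below it in every wild-type library. In Scd2-m/-m replicates 1 to 3 Axl was then 43.4, 39.0 and 44.6 against 31.4, 34.2 and 34.2 CPM per kilobase for Mertk.

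Ordered by level per kilobase in wild-type BMDMs, the tested genes were Gas6, Mrc1 (71.4 ± 19.4), Folr2 (62.7 ± 0.719), Mertk (41.4 ± 3.00), Axl (19.3 ± 1.73), Cd163 (10.8 ± 1.40), Cd5l (8.55 ± 0.448), Vsig4 (0.472 ± 0.146) and Timd4 (0.195 ± 0.0569), and of these neighbours only Mrc1 and Folr2 overlapped in their libraries. In Scd2-m/-m BMDMs the order was Gas6, Folr2 (113 ± 2.61), Mrc1 (93.6 ± 17.1), Cd5l (40.3 ± 4.56), Axl (35.9 ± 2.53), Mertk (33.0 ± 1.63), Cd163 (12.0 ± 0.556), Vsig4 (1.67 ± 0.346) and Timd4 (0.661 ± 0.126). There Folr2 overlapped with Mrc1, Cd5l with Axl, and Axl with Mertk. Cd5l thus stood below Cd163, Axl and Mertk in wild type, at 0.798 ± 0.0633 times Cd163, and above Cd163 in Scd2-m/-m, at 3.35 ± 0.243 times. The summed level of all 10 genes was 438 ± 73.1 CPM per kilobase in wild type against 569.8 ± 30.6 in Scd2-m/-m, with Gas6 the largest part of either sum. With the longest transcript as the length of a gene, Folr2 was at 80.5 and 144 and Axl at 22.8 and 42.4 CPM per kilobase in the 2 genotypes. By that length, mean Axl stood above mean Cd5l (40.3) in Scd2-m/-m. The Scd2-m/-m libraries of Folr2 then no longer overlapped with those of Mrc1, nor those of Axl with those of Mertk.

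**Figure D3:**
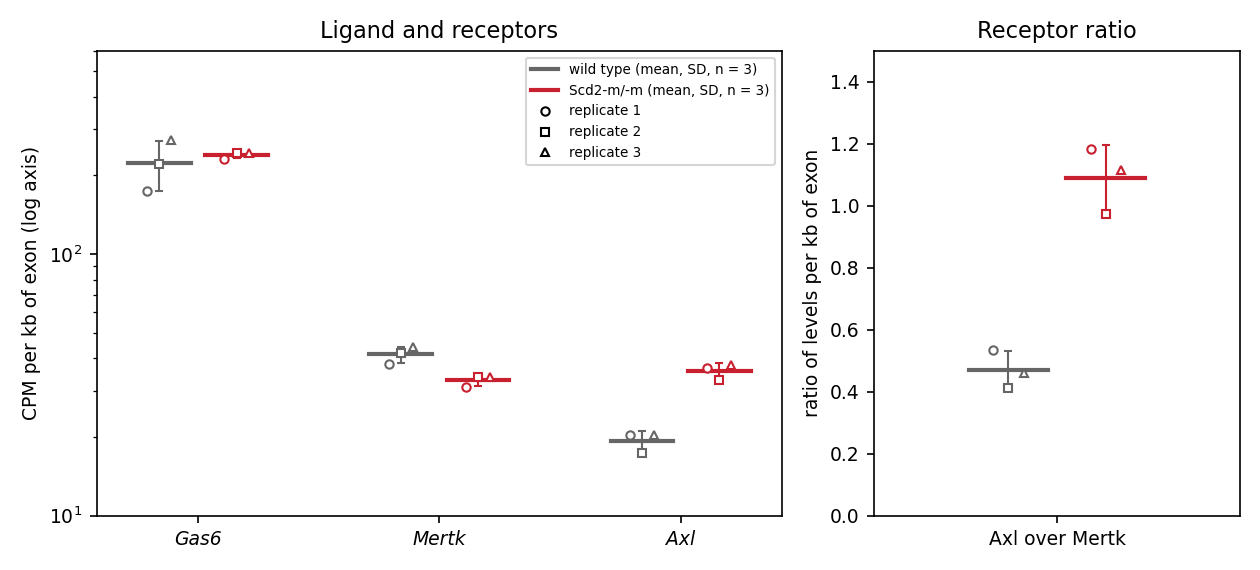
Left, CPM per kilobase of exon (log axis) of the TAM ligand Gas6 and the receptors Mertk and Axl, and right, the ratio of Axl to Mertk, with open symbols for libraries by replicate number and bars for the mean and SD (n = 3 each). The ratio lies between 0.413 and 0.534 in wild-type and between 0.972 and 1.18 in Scd2-m/-m libraries.

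**Figure D4:**
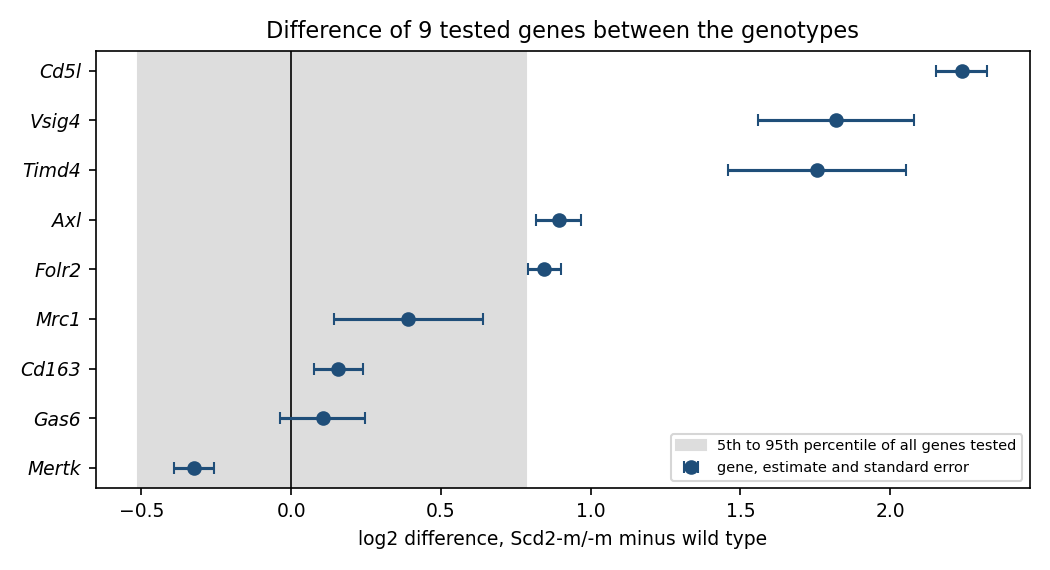
Log2 difference, Scd2-m/-m minus wild type, of the 9 tested genes, with points for the estimates, bars for 1 SE and shading from the 5th to the 95th percentile of all genes tested (−0.51 to 0.79). Cd5l, Vsig4 and Timd4 lie far above the shading, Axl and Folr2 just above it, and Mertk inside it and below 0.

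The genes lie on 7 chromosomes. Folr2, Lyve1 and Axl share chromosome 7, Mrc1 and Mertk share chromosome 2, and none is the next tested gene to another. The nearest tested genes toward lower and higher coordinates were examined for each of the 10. Of these 20, 2 (10.0%) were called, both higher, beside 17.5% called over all genes tested. Of the 20, Gm10602 overlaps Folr2 and Gm14011 lies inside Mertk. Fcrl1, 5314 bases from Cd5l, was higher by 0.35 (FDR 0.00975), which did not pass without Scd2-m/-m replicate 2 (0.34, FDR 0.0566). Folr1, a second folate receptor 1137 bases from Folr2, was higher by 0.74 (FDR 0.0254) at a low level of 1.41 ± 0.137 against 2.35 ± 0.519 CPM. It did not pass in 4 of the 6 fits that left out 1 library, where the differences ran from 0.60 (without Scd2-m/-m replicate 1, FDR 0.0942) to 0.73 (without wild-type replicate 2, FDR 0.0842), with 0.68 without wild-type replicate 3 (FDR 0.0689) and 0.70 without Scd2-m/-m replicate 3 (FDR 0.0773).

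Among genes with a mean of at least 1 CPM, those whose log2 level followed the mean of Cd5l, Vsig4, Timd4 and Folr2 most closely over the 6 libraries were Stmn1, Nek2, Rhov, Cenpf and Tusc3, with Pearson r of 0.998 for Stmn1. The 6 libraries share 2 genotype means, so the measure reads mostly the genotype difference. Stmn1 is a microtubule regulator, and Nek2 and Cenpf act in mitosis. A list of 20 G2/M and mitosis genes was called higher in 20 of 20, beside 9.65% of all genes tested. Its median log2 difference was 1.93 against 0.0039 over all genes tested. The list was chosen with earlier results of these data known, so the count is a description. In that list Ccna2 was 1.14 ± 0.100 and 10.1 ± 0.859 CPM, Ube2c 0.993 ± 0.177 and 12.5 ± 1.44 CPM, and Cenpf 0.294 ± 0.116 and 6.09 ± 1.05 CPM in wild-type and Scd2-m/-m BMDMs. Their part in the differences of the 10 genes was not tested.

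The remaining genes of dead-cell clearance were called in both directions. Beside 17.5% of all genes tested, the called share was 72.7% of the bridging molecules and opsonins, 29.4% of the other clearance receptors, 25.0% of the engulfment genes, 31.8% of the corpse digestion genes, 27.3% of the find-me and do-not-eat-me receptors and 23.1% of the TAM ligand maturation genes, with no test of these shares. Of 11 tested bridging molecules and opsonins, 4 rose and 4 fell. Pros1, which encodes a ligand of some of the TAM receptors, rose by 0.39 (FDR 0.00802) from 37.7 ± 4.30 CPM. Gas6 over Pros1 per kilobase was 24.0 ± 2.65 in wild type against 19.9 ± 1.55 in Scd2-m/-m. Anxa1 rose by 0.50 (FDR 0.000262), the complement component C1qa fell by 0.47 (FDR 0.000495), and the adhesive glycoprotein Thbs1 fell by 1.53 (FDR 1.15e-08). The phosphatidylserine bridge Mfge8 had a difference of 0.10 (FDR 0.385). The list held 5 calls without wild-type replicate 2 and also without Scd2-m/-m replicate 2.

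Of 17 other clearance receptors, 1 rose and 4 fell. The falls included the integrin subunit Itgb5 (−0.68, FDR 3.95e-05), the scavenger receptor Scarf1 (−0.58, FDR 3.56e-05) and the inhibitory receptor Cd300a (−0.31, FDR 0.00217). Stab1, stabilin-1, fell by 0.34 (FDR 0.0104), which did not hold without wild-type replicate 2 (−0.30, FDR 0.0688). Trem2, a lipid receptor, had a difference of −0.01 (FDR 0.919). The count was 8 without wild-type replicate 1 or without wild-type replicate 3.

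Inside the cell, 2 of 24 engulfment and phagosome genes rose and 4 fell, with 2 calls in all without Scd2-m/-m replicate 2 and 3 without wild-type replicate 2. Lamp2, of the lysosomal membrane, rose by 0.35 (FDR 0.00191), Rhog, a small GTPase of engulfment, fell by 0.39 (FDR 0.000649), and Elmo1, its partner, fell by 0.27 (FDR 0.0103, and 0.0644 without Scd2-m/-m replicate 2). Of 22 corpse digestion and lipid efflux genes, 1 rose and 6 fell, and the count was 4 without wild-type replicate 2, without Scd2-m/-m replicate 2 or without Scd2-m/-m replicate 3. The cholesterol exporter Abcg1 rose by 0.72 (FDR 2.02e-05), while its nuclear receptor regulators Rxra (−0.72, FDR 1.94e-06) and Nr1h3 (−0.59, FDR 0.0112) fell, as did the arginine transporter Slc7a2 (−0.57, FDR 0.00630). Nr1h3 did not pass without Scd2-m/-m replicate 3 (−0.55, FDR 0.0930).

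Of 11 find-me and do-not-eat-me receptors, 1 rose and 2 fell. Siglecg, an inhibitory sialic acid receptor, had 4, 0 and 0 counts in wild-type and 21, 14 and 33 in Scd2-m/-m libraries (FDR 0.00400). Pecam1 fell by 1.32 (FDR 0.000257), and the nucleotide receptor P2ry2 fell by 0.31 (FDR 0.0255), a call that was lost in 4 fits that left out 1 library (−0.23 without wild-type replicate 1, −0.33 without wild-type replicate 2, −0.35 without Scd2-m/-m replicate 2 and −0.26 without Scd2-m/-m replicate 3). Of 13 genes of TAM ligand maturation, receptor shedding and feedback, Pros1 rose and the interferon receptor chains Ifnar1 (−0.26, FDR 0.00952) and Ifnar2 (−0.25, FDR 0.00696) fell. Without Scd2-m/-m replicate 2 this list held 1 call, Ifnar1 being then at FDR 0.0736 and Ifnar2 at FDR 0.0633, and Ifnar1 was at FDR 0.0593 without wild-type replicate 2. Adam17, the protease that sheds Axl and Mertk from the surface, had a difference of −0.06 (FDR 0.658).

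Other genes of resident macrophages were called in both directions. The called share was 52.9% of Kupffer and red pulp genes, 36.4% of cavity genes and 47.4% of perivascular genes. Over all genes tested it was 17.5%, and these shares were not tested. Clec4f, C6 and Kcna2 of the first list had too few counts to test. So had Gata6, Selp, Alox15, Rarb, Tgfb2, Lrg1 and Wt1 of the cavity list, and Cd209a, Cd209b, Cd209d, Cd209e, Cd209f and Cd209g of the perivascular list. Of 17 Kupffer cell and red pulp macrophage genes, 3 rose and 6 fell, with a median log2 difference of −0.07. The adhesion molecule Vcam1 rose by 2.10 (FDR 0.000243), and the scavenger receptor Marco (−1.70, FDR 2.42e-05) and the metal transporter Slc11a1 (−0.47, FDR 6.64e-05) fell. Of 11 cavity macrophage genes 3 rose, among them Icam2 (1.03, FDR 0.000297) and Bhlhe40 (0.84, FDR 0.000479), and Adgre1 (F4/80) fell (−0.49, FDR 0.00428). Of 19 perivascular and interstitial macrophage genes, 5 rose and 4 fell, with a median log2 difference of −0.02. The rises included Ccl8 (2.65, FDR 8.41e-05), C4b (1.13, FDR 0.000884) and Fcna (0.58, FDR 0.000339). Ccl8 had only 12 to 32 and C4b 67 to 84 counts in wild-type libraries. The falls included F13a1 (−0.75, FDR 0.00801), Stab1 (−0.34) and Maf (−0.35).

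Of 28 regulators of resident macrophage identity, 6 rose and 9 fell, a called share of 53.6% beside 17.5% of all genes tested. Maf fell by 0.35 (FDR 0.00686), and did not pass without Scd2-m/-m replicate 2 (−0.32, FDR 0.0594). Cebpa fell by 0.54 (FDR 8.76e-05) and Klf2 rose by 0.58 (FDR 7.18e-05). Spic, the factor of red pulp macrophages, had a difference of 0.30 (FDR 0.376).

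The called share was 37.5% of alternative activation genes, 33.3% of glucocorticoid response genes and 47.4% of listed relatives of the 10. Over all genes tested it was 17.5%. Of 16 alternative activation genes 6 rose and the other 10 were not called, with a median log2 difference of 0.48, beside Mrc1, which did not pass. Chil3 rose by 1.80 (FDR 6.68e-06), Egr2 by 0.86 (FDR 5.50e-05) and Il1rn by 0.66 (FDR 0.00150). Of 12 glucocorticoid response genes, 4 fell and the other 8 were not called, among the falls Errfi1 (−0.37, FDR 0.0160), Tsc22d3 (−0.32, FDR 0.0244) and Per1 (−0.27, FDR 0.0352). That list kept none of its calls by edgeR without wild-type replicate 2 (Errfi1 at FDR 0.0640, Tsc22d3 at 0.0706, Per1 at 0.149) or without Scd2-m/-m replicate 2 (0.0644, 0.105 and 0.114), and its count was 1 without Scd2-m/-m replicate 1 and 2 without wild-type replicate 1. Of 19 genes listed as relatives of the 10, a list that holds folate transporters beside protein relatives, 4 rose and 5 fell, among them the transporter Slc46a3 (−0.39, FDR 0.00257), and the count was 4 without wild-type replicate 2 and 5 without Scd2-m/-m replicate 2.

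**Figure D5:**
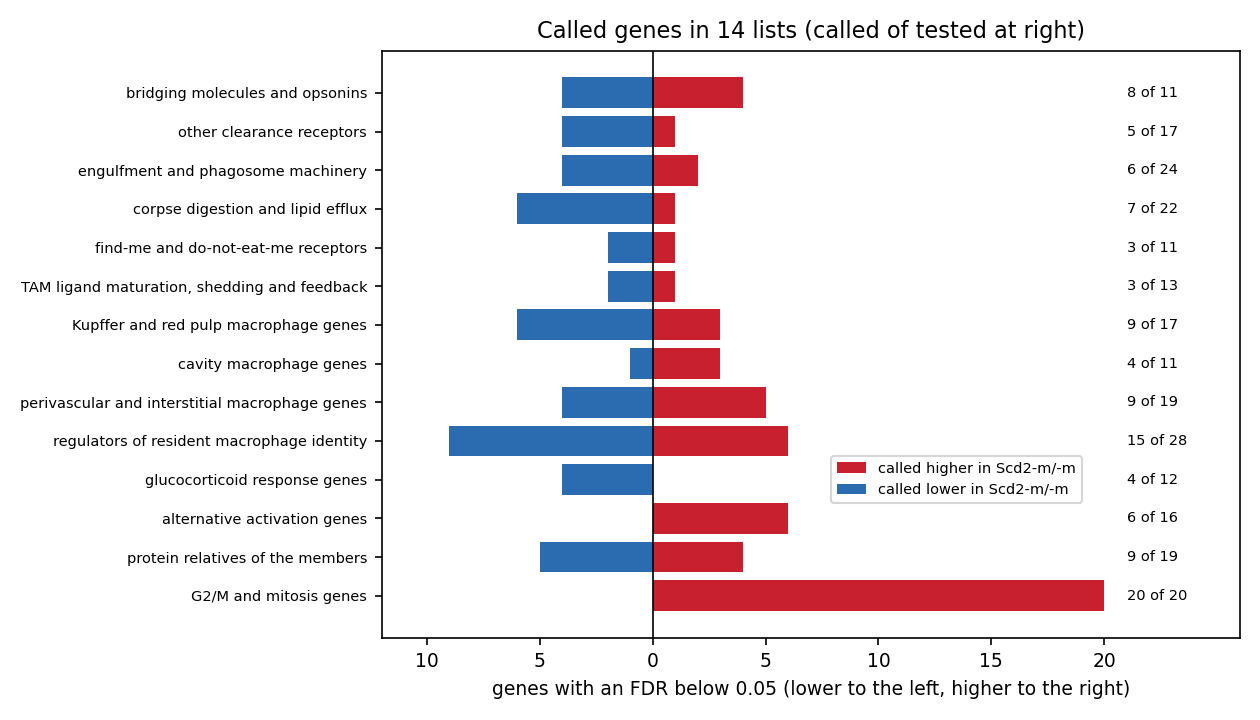
Number of called genes in 14 gene lists (FDR below 0.05), lower in Scd2-m/-m to the left and higher to the right of 0, with the called and tested numbers at the right. The G2/M list has 20 of 20 called higher, and the alternative activation list has 6 called higher, while most other lists have calls on both sides.

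Markers of other cells that a bone marrow culture could hold were low, and some moved with genotype. Over all genes tested, 9.65% were called higher and 7.84% lower, and the marker counts were not tested against these shares. Monocyte and progenitor markers summed to 141 to 156 CPM in wild-type and 153 to 217 CPM in Scd2-m/-m libraries, with 7 of 12 tested called higher, among them Ccr2 (47.8 ± 9.57 to 115 ± 30.1 CPM), and 1 lower (F13a1). Most of the neutrophil sum, 183 to 191 and 159 to 191 CPM, was Csf3r, which fell from 164 ± 6.16 to 135 ± 12.0 CPM, while 4 of 7 tested markers were called higher at low levels, S100a8 (4.08 to 7.98 CPM), S100a9 (2.79 to 8.74), Ltf (0.862 to 2.36) and Ngp (2.51 to 8.42). The osteoclast markers summed to 271 to 312 and 236 to 251 CPM (2 of 7 higher, 2 lower, Calcr at 0), B and plasma cell markers to 55.1 to 120.5 and 85.7 to 118 CPM (3 of 6 higher, with most of the sum from Ighm) and dendritic cell markers to 3.75 to 6.00 and 4.93 to 5.99 CPM (2 of 8 higher). Blood endothelial markers summed to 47.5 to 53.6 and 74.4 to 92.3 CPM (1 of 4 higher, Cldn5 at 0), most of it Vwf, and lymphatic endothelial markers to 2.72 to 3.99 and 5.32 to 7.38 CPM (1 of 1 higher, Pdpn, with Ccl21a at 0). Few markers had enough counts to test among T and NK (1 of 9, summed level 0.681 to 0.975 CPM, Ncr1 and Gzma at 0), erythroid (3 of 8, 1.59 to 2.72 CPM), mast and basophil (2 of 8, 0.304 to 1.29 CPM, Tpsb2 and Cma1 at 0) and fibroblast markers (5 of 9, 4.68 to 7.57 CPM), and none of those tested was called by edgeR. Their part in the differences of Cd5l, Vsig4, Timd4, Folr2, Axl and Mertk was not tested.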

How the data were processed

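Poly(A)-selected RNA of 3 wild-type and 3 Scd2-m/-m BMDM samples was measured. The authors deposited whole-number read counts per gene, and which tool counted them, and whether by strand, is not stated in the sources used here. The submitters' processing notes name edgeR and limma. Low counts were even more often than odd (60.9% to 64.8% of counts up to 20), so single counts may stand for read pairs. Of 40757 entries, 276 were repeats of a gene, leaving 40481 genes. A second deposited table holds the authors' own comparison and was not used.

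Samples were grouped by the labelled genotype. Genes passing filterByExpr (14778) were fitted with edgeR 4.0.16 in R 4.3.3 (TMM factors, robust quasi-likelihood test, genotype only), and a gene was called at FDR below 0.05. SE is the log2 difference divided by the square root of F. CPM used TMM-scaled library sizes, and levels per kilobase used the union of exons (GENCODE M21, GRCm38). Promoters were from RefSeq (GRCm38.p6).

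Totals of 46285176 to 57629638 counts per library set the counting error, which is wide for Vsig4 and Timd4 and leaves Lyve1 untested. No replicate pair was alike within sampling noise. Labels do not say whether replicates came from separate mice or cultures, so p-values measure only the spread between these samples. The 10 genes and the gene lists were chosen with earlier results of these data known. In each list, up to 3 called, non-overlapping genes with the smallest p were named, with Tyro3, Pros1, Mfge8, Adam17, Stab1, C1qa, Trem2, Maf, Spic and Nr1h3 regardless. A further gene named by this rule is not reported here. Alternatives were other normalization factors, DESeq2 1.42.0, limma-voom (limma 3.58.1), other filters, halved counts, a replicate block, leaving out each library and longest-transcript lengths. Scripts were tested on simulated data.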

Additional observations from a re-analysis of the deposited data

How the results depend on the processing

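Among Cd5l, Vsig4, Timd4, Folr2, Cd163, Mrc1, Gas6, Axl and Mertk, all 126 alternative values moved by less than the spread between replicates. The genes were chosen on these libraries, so that is no sign of stability. The number past the threshold was 6, or 7 without wild-type replicate 3 (with Cd163, 0.27) and with the replicate block (with Mrc1, 0.41). Over all genes tested, 2585 were called in the main fit, 2288 without wild-type replicate 3 and 2974 with the replicate block. Because the genes were chosen on this comparison, nothing is read from these numbers. When single libraries were left out, the log2 difference ranged from 2.19 to 2.33 for Cd5l, 1.59 to 2.02 for Vsig4, 1.53 to 1.92 for Timd4, 0.83 to 0.86 for Folr2, 0.82 to 0.95 for Axl, −0.38 to −0.28 for Mertk and −0.04 to 0.28 for Gas6. With longest-transcript lengths, 7 of 18 levels per kilobase moved by more than the spread between replicates.

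Leaving out 1 library gave 1440 to 2567 called genes in place of 2585 (1440 without Scd2-m/-m replicate 2, 1490 without wild-type replicate 2). The called genes then numbered 5 to 8 of bridging molecules and opsonins, 4 to 8 of other clearance receptors, 2 to 6 of engulfment, 4 to 7 of corpse digestion, 1 to 4 of TAM ligand maturation, 7 to 11 of perivascular genes, 0 to 3 of glucocorticoid response genes, 5 to 6 of alternative activation and 4 to 10 of protein relatives; these fits have fewer samples. Testing every gene with a count gave 8 other clearance receptors, and limma-voom gave 2 glucocorticoid response genes; the cause was not tested. With limma-voom Scd2 passed the threshold (−0.62, FDR 0.0105) and Per1 did not (−0.26, FDR 0.0514).

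With the replicate number as a replicate block, 2974 genes were called, with 5 called in the TAM ligand maturation list, 14 in the perivascular list and 10 in the alternative activation list. Deviations of same-numbered samples from their genotype means, over all genes tested, correlated at 0.0530, −0.0196 and 0.0398 for replicates 1, 2 and 3. Such a correlation cannot settle whether same-numbered samples share a mouse, a culture or a day, because it averages over genes. Of 753 values of the other named genes, 722 kept their side of the threshold, 29 no longer passed it, and 2 (Scd2) newly passed it. Direction changed for Adam17 without wild-type replicate 1 (0.01) and for Trem2 without wild-type replicate 1 and without Scd2-m/-m replicate 3 (both 0.04), none of which was called. Depth left Lyve1 (0 to 3 counts per library) untested and limits Vsig4 and Timd4 (14 to 153).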
